A study of Mus musculus with 302 samples.

Results

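The mitochondrial ribosomal protein genes are the nuclear genes Mrpl and Mrps, and 36 array probes for 30 of them were measured in the livers of 302 F2 mice. They were chosen as every probe that names 1 gene with a symbol of Mrpl or Mrps followed by a number, out of 23562 probes in all, of which 12652 name 1 of 10838 mouse genes. The large subunit, Mrpl, had 25 probes for 20 genes, and the small subunit, Mrps, had 11 probes for 10 genes. All 36 probes had a value in every mouse.

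The mice came from an intercross of C57BL/6J and C3H/HeJ made in both directions, and both sexes were used. Every mouse ate chow with 4% fat up to an age of 8 weeks and then a Western diet of 42% fat and 0.15% cholesterol for 12 weeks, and the liver was frozen at 20 weeks after a 12 h fast. All samples form 1 group, with no untreated or chow-only livers, and no label of genotype, sex or trait of a mouse is used here. The array value of the marker Eif2s3y was used to set blocks, as described below. Each array set 1 liver against a common pool, so every value is a ratio with no absolute level, and markers of hepatocytes could not be checked as levels.

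Mitochondria carry their own ribosomes, which make the few proteins encoded by mitochondrial DNA, all of them subunits of the respiratory chain and ATP synthase. The ribosomal RNAs come from mitochondrial DNA, while every ribosomal protein is encoded in the nucleus, made in the cytosol and imported. The large subunit forms peptide bonds and holds the exit tunnel, and the small subunit decodes the messenger RNA. Of the measured genes, 14 of the large and 5 of the small subunit belong to families shared with bacterial ribosomes, and 6 and 5 are specific to mitochondrial ribosomes. Nuclear genes for mitochondrial proteins are known to be driven by NRF1, by ETS-family factors such as GABP, by YY1 and, with their coactivators, by ESRRA.

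Promoter sequence was looked up for the 30 genes in RefSeq (build GRCm38.p6), and 25 had at least 1 window that runs from 250 bases before to 50 after an annotated start. The windows were searched on both strands for GCATGCGC (the core of an NRF1 site), CCGGAAGT (an ETS-family site) and AAGATGGCG (a YY1 site). The promoters of 3 genes are shown because, of the genes with a window, Mrps21 followed the family most closely and Mrpl37 and Mrpl32 least, as described below. Each line gives the 250 bases before the start, 5′ to 3′ on the gene's strand, with NRF1 letters in capitals. Mrps21 lies at chr3:95871515-95871764 on the minus strand, Mrpl37 at chr4:107066867-107067116 on the minus strand and Mrpl32 at chr13:14613038-14613287 on the minus strand.
Mrps21: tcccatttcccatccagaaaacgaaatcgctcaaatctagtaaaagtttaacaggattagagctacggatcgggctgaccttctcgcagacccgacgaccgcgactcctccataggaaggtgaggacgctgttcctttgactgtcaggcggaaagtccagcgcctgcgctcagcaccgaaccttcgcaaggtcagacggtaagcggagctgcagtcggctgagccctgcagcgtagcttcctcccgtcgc
Mrpl37: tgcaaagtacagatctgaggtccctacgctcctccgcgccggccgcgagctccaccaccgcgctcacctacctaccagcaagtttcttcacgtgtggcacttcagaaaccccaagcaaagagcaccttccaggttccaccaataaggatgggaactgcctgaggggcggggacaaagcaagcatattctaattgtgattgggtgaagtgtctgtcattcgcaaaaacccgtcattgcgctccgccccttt
Mrpl32: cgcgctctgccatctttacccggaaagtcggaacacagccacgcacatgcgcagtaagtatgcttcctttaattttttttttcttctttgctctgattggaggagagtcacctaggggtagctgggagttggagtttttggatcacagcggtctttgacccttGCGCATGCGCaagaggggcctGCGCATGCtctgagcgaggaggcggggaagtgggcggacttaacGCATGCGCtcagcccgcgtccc
The Mrps21 window held none of the 3 motifs, and the Mrpl37 window held YY1 letters only, which are not within the 250 bases shown. In Mrpl32 the first NRF1 match began at position -87, counted from 0 at the start, and there were 4 matches, with overlaps because the letters nearly read the same on both strands. NRF1 letters were found in 3 of 25 member genes (12.0%), in 4.46% of the 8590 measured genes with a window and in 3.05% of all 27025 genes. Mrpl10 and Mrpl39 were the other genes with them. ETS letters were found in 4 member genes, Mrpl18, Mrpl27, Mrpl48 and Mrps26 (16.0%, against 5.79% of measured genes), and YY1 letters in 2, Mrpl36 and Mrpl37 (8.0%, against 2.42%). Any of the 3 was present in 9 of 25 member genes and in 11.9% of measured genes. CCAAT, at 40% of member genes, and GGGCGG, at 52.0%, compare with 42.2% and 58.0% of measured genes. These matches are letters in a window and no evidence of binding.

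The values were read as log10 of mouse over pool. The base and the direction are not stated and are likely rather than certain, and turning the direction would turn the sign of each value and of each difference between mice, but of no correlation or slope on a score. Every array has the mouse in the same dye, per the labels, although some arrays ran opposite to others: 881 of 45451 pairs had an r under -0.3, down to -0.509. Array medians lay between -0.0117 and 0.0174, and their SDs over probes between 0.0696 and 0.258. Values were centred within 4 blocks of 82, 78, 77 and 65 mice, set by the marker Eif2s3y below or above -0.8 and by mouse number up to 212 or above. No value of a member was missing or at the limits of -2 and 2. Whether each column is a separate mouse rests on the labels, and all arrays share the pool.

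Probes of a gene are numbered here by their agreement with the family, from high to low. The spread of the family was close to that of the array. After centring, the median SD over the 36 probes was 0.0562, against 0.0616 over all probes, and large and small subunit probes had medians of 0.0589 and 0.050. Mrpl27, a large subunit protein of the bacterial type, had the widest spread at 0.0942 ± 0.0036 (jackknife SE over 302 mice) on its second probe, with values from -0.294 through a median of -0.0074 to 0.232. The middle 90% of the mice thereby spanned a 2.01-fold range. Mrpl38, a large subunit protein specific to mitochondria, followed with an SD of 0.0849 ± 0.0046 and values from -0.168 through -0.0036 to 0.384. Mrpl12, whose bacterial counterpart forms the flexible stalk that recruits translation factors, had an SD of 0.0793 ± 0.0036 and values from -0.273 through -0.0510 to 0.244. The next 5 in order, Mrps26, Mrpl34, both Mrpl23 probes and Mrpl18, lay close to each other, between 0.0655 and 0.0704. At the low end were Mrps33 on its first probe at 0.0303 ± 0.0019, Mrpl46 at 0.0355 ± 0.0014, Mrpl27 on the third probe at 0.0358, Mrpl10 at 0.0361 and Mrps2 at 0.0372. For Mrpl46 the middle 90% of mice spanned 1.32-fold. The highest single value was 0.449, for Mrpl19, and the lowest was -0.396, for Mrpl18.

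None of the 36 probes fell into 2 separate clusters of mice, counted where 2 Gaussian components described it better, lay over 3 SDs apart and no component was smaller than 5% of the mice. Over all probes 2.28% passed this rule (535 of 23512). No member thus had 2 distinct levels among the mice by this rule, which is near that low share. Mrpl38, Mrps5, Mrpl39 and Mrpl12 missed only the gap of 3 SDs, at 2.89, 2.78, 2.64 and 2.52 SDs.

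Part of the family moved together across mice, between as well as within the subunits. The mean of the large and the mean of the small subunit probes correlated at r = 0.790 ± 0.0227 (jackknife SE) and rho = 0.772, at 0.784 without the 2 most extreme mice, and at 0.734 to 0.869 within the 4 blocks. Means of other gene sets of these sizes were not computed for comparison. Single pairs agreed far less. The mean r over pairs of different genes was 0.0736 ± 0.0083 within the large subunit (293 pairs), 0.140 ± 0.016 within the small (54 pairs) and 0.120 ± 0.0094 between them (275 pairs). Over all pairs of named probes it was 0.00344. An r over 0.2 was reached by 35.0% of member pairs and by 13.9% of all pairs. An r below 0 was found in 37.1% of member pairs and in 50.3% of all pairs. Correlations are descriptions over 302 livers that share the pool, and array effects can enter every one of them. The members' mean correlated at 0.0709 with the first principal component of all probes, which holds 10.8% of the variance, and at 0.121 with the SD of the array.

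**Figure D1:**
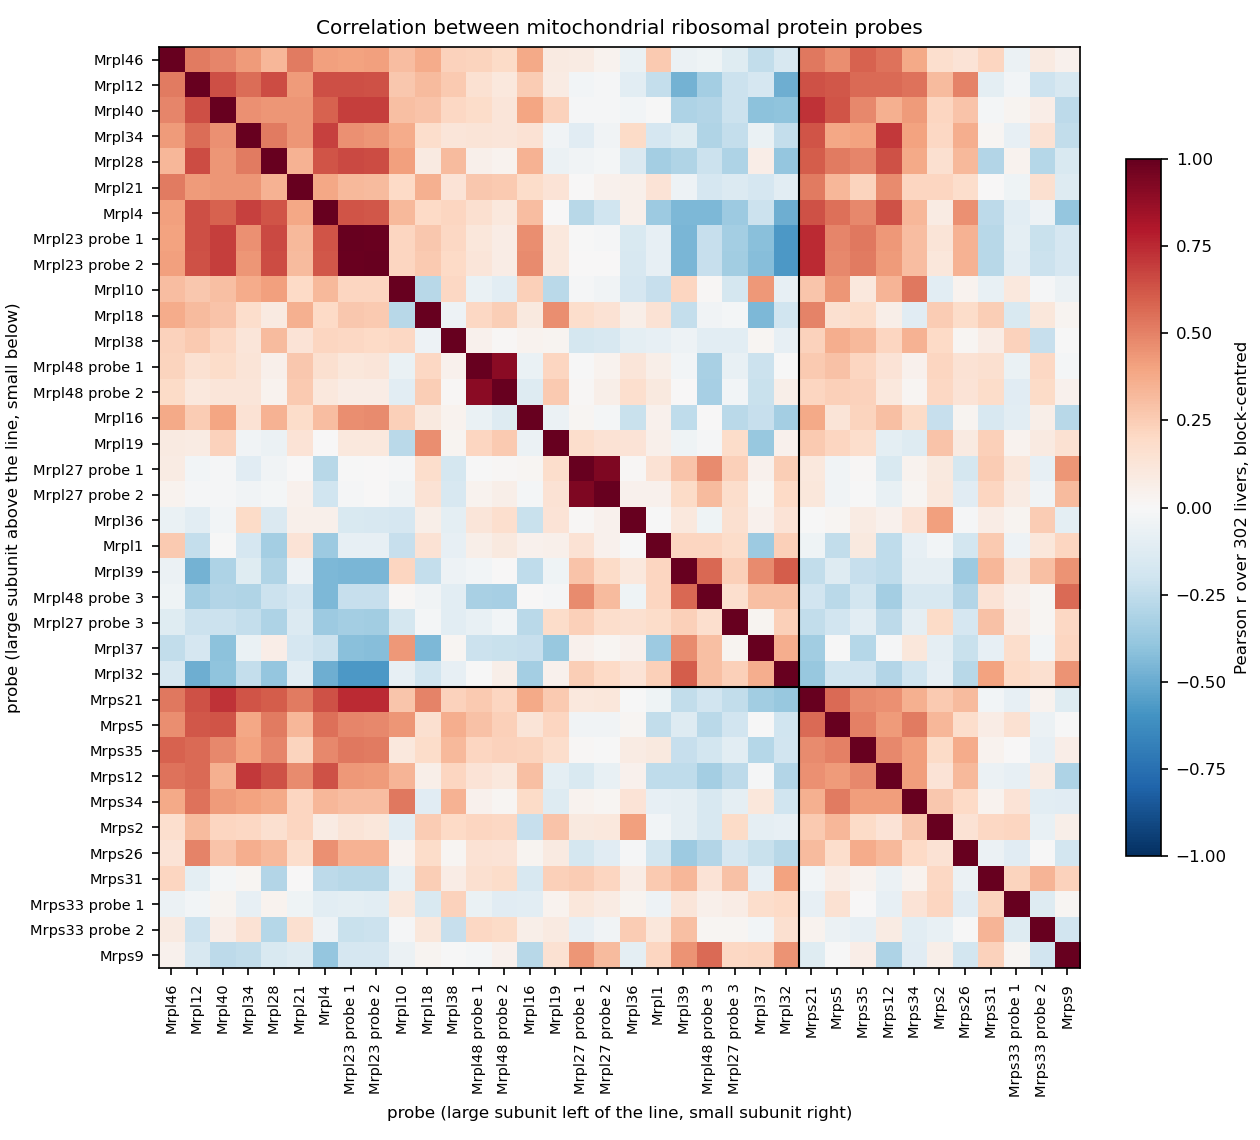
Pearson r between every pair of member probes over 302 livers after centring in blocks, large subunit first and ordered within each subunit by agreement with the family. Red squares mark probes that rose and fell together and blue squares probes that moved oppositely; Mrpl23, Mrpl12, Mrpl4 and Mrps21 form a red set that crosses the line between subunits, and Mrpl32, Mrpl39 and Mrpl37 are blue against it.

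Agreement with the family was measured as r between a probe and the mean of the members of all other genes. It was highest for Mrps21, a small subunit protein of the bacterial type, at 0.743 ± 0.0266, with values from -0.186 through a median of -0.0133 to 0.167. The next were Mrpl46 at 0.685 ± 0.0312, a large subunit protein specific to mitochondria, and Mrps5 at 0.682 ± 0.0312, a bacterial-type small subunit protein. Mrpl12 reached 0.652 ± 0.0313. Below Mrps21, each of these differed from the next in order by less than its SE. Mrpl40 at 0.628, Mrps35 at 0.624, Mrpl34 at 0.613 and Mrps12 at 0.556 completed the 8 highest. Mrps12 is the counterpart of the bacterial protein at the decoding site. In all, 16 of 36 probes had an r over 0.3, against 16.9% of the 12584 named probes of other genes, and 7 of 36 lay below 0, against 44.1%. The share over 0.3 was 10 of 25 large and 6 of 11 small subunit probes. Bacterial-type proteins had 12 of 22 probes over 0.3 and those specific to mitochondria 4 of 14, with medians of 0.349 and 0.257.

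A few probes had an r below 0. Mrpl32, a large subunit protein that is cut to its mature form after import, had an r of -0.206 ± 0.0584 (rho = -0.123), with values from -0.118 through 0.0194 to 0.165. Mrpl37, specific to mitochondria, had -0.203 ± 0.0538 (rho = -0.160). Without the 2 farthest mice r was -0.177 for Mrpl32 and -0.175 for Mrpl37, and the signs were the same in both ranges of mouse number and in both marker blocks. Mrpl39, also specific to mitochondria, had -0.101 ± 0.064, but a rho of -0.0241 and an r of -0.0621 without the 2 farthest mice, so it was not clearly below 0. Mrpl1, of the stalk of the large subunit in bacteria, had -0.0659 ± 0.0571, with 0.235 in the later and -0.205 in the earlier numbers, so its sign is not settled. Mrps9 had -0.0279 ± 0.0671. Pairs of Mrpl32 or Mrpl39 with the leading members were among the most negative of the family: Mrpl23 with Mrpl32 had r = -0.578, Mrpl4 with Mrpl32 -0.491 and Mrpl12 with Mrpl39 -0.469. Among themselves Mrpl23 and Mrps21 had r = 0.750, the highest of any 2 genes, Mrps21 and Mrpl40 had 0.722, and Mrpl34 and Mrps12 had 0.710. The first principal component correlated at 0.608 with Mrpl32 and at -0.465 with Mrpl23. With that component removed, a choice made after seeing the data, Mrpl23 and Mrpl32 had r = -0.419, Mrpl4 and Mrpl32 -0.311 and Mrpl12 and Mrpl39 -0.408, and r with the family was -0.271 for Mrpl32 and -0.195 for Mrpl37.

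**Figure D2:**
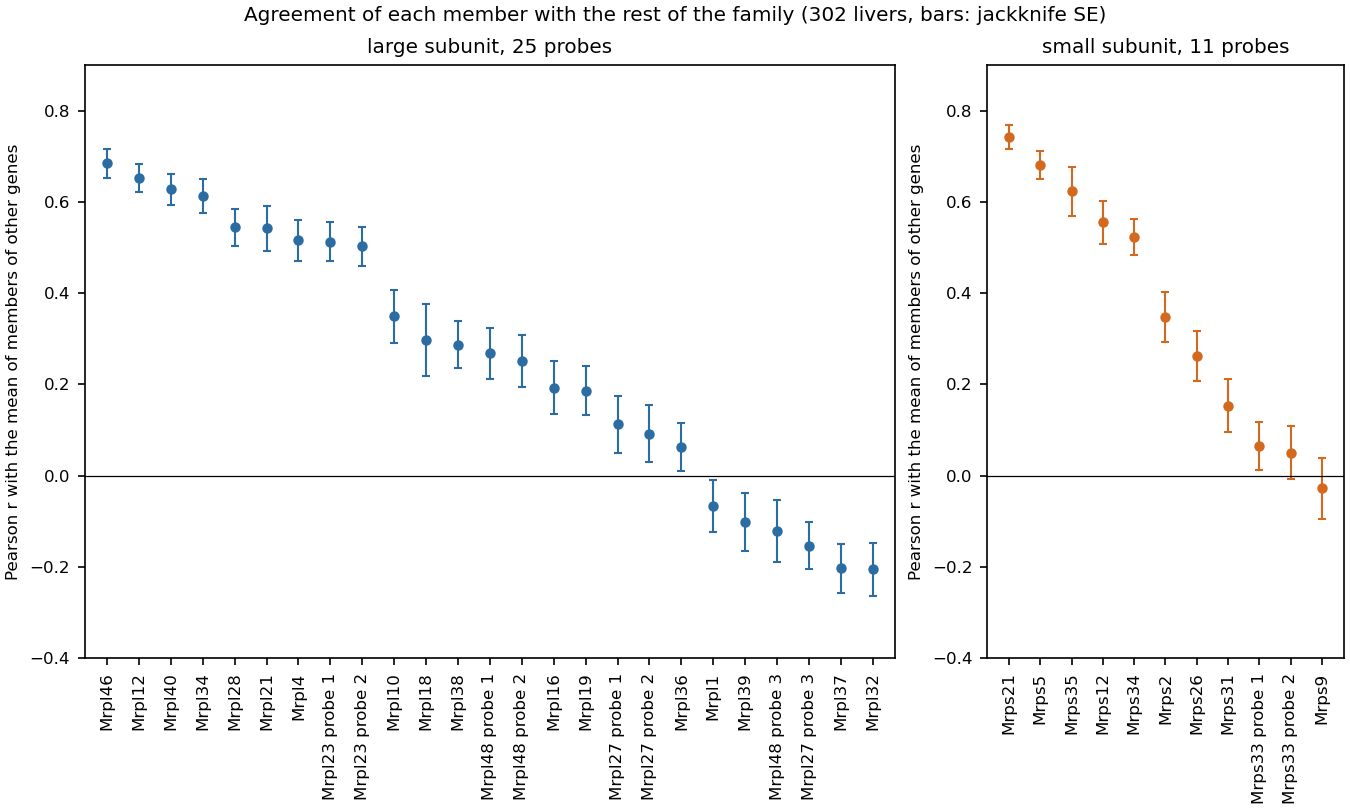
Pearson r of each probe with the mean of the members of other genes over 302 livers, large subunit left and small subunit right, with jackknife SE. Values run from 0.743 for Mrps21 to -0.206 for Mrpl32, and both subunits cover most of the range.

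Agreement with the family was set beside the promoter letters shown above. Here the r of a gene with several probes is the mean over its probes, including the discordant probes of Mrpl27, Mrpl48 and Mrps33. The 9 genes with any of the 3 motifs had a median r with the family of 0.0628, ranging from -0.206 to 0.349, and the 16 genes without one had a median of 0.543, ranging from -0.0659 to 0.743. NRF1 letters were in Mrpl10 at 0.349, Mrpl39 and Mrpl32. The values of both groups overlap, and no test was made.

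Probes of 1 gene did not always agree. For Mrpl23 both probes had r = 0.992 with each other. Mrpl27 had 2 probes at 0.934, but the third, with an r of -0.154 with the family, stood apart from both. Mrpl48, specific to mitochondria, had 2 probes at 0.906 with each other and with an r of 0.268 and 0.251 to the family, while the third had -0.122 and ran opposite to them. The 2 probes of Mrps33, also specific to mitochondria, had r = -0.128. Which transcripts the probes detect is not known here, so for Mrpl27, Mrpl48 and Mrps33 each value belongs to a probe and not to the gene.

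For 5 of 36 probes, of Mrpl27, Mrpl48 and Mrps26, many of the genes that correlated most with them lay on the own chromosome. Among the 20 genes that correlated most with Mrpl27 on its second probe, 19 were on chromosome 11, where the gene lies, led by Nme1 at r = -0.728, Copz2 at 0.707 and Nme2 at -0.662, and 13 were within 300 genes of it. Chromosome 11 holds 8.22% of the named genes. For the first and second Mrpl48 probes 19 and 15 of 20 were on its own chromosome 7, led by Myo7a at -0.665 and -0.683. For Mrps26, specific to mitochondria, 14 of 20 were on chromosome 2, among them Spata5l1 at 0.707. With the first Mrpl27 probe, at 9, 13.9% of member probes had 9 or more, against 2.50% of other named probes; the count of 9 was chosen after the values were seen. The median was 1 for members and for other probes alike. In Mrpl12 and Mrps21, at the centre of the family, 0 of 20 were on the own chromosome.

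Respiratory chain genes were the list that the members followed most often. The score was the mean of 28 Nduf, Cox and Atp5 genes, for subunits of complex I, complex IV and ATP synthase, standardized to an SD of 1. No gene of complex II or III was in it. Limma was fitted across 23512 probes with the 4 blocks as covariates. At an adjusted p under 0.05 (Benjamini-Hochberg over all probes), 27 of 36 members rose with the score, against 38.5% of all probes, and 4 fell, against 26.4%. The median slope was 0.0150 over members and 0.00268 over all probes. The large subunit had 19 of 25 up and 3 down and the small 8 of 11 up and 1 down, and their means correlated with the score at 0.702 and 0.660. The difference between subunits was not tested.

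Mrpl12 had the steepest slope, 0.0448 ± 0.00377 log10 per SD of the score or 1.11-fold (limma adjusted p = 2.54e-25). Mrpl23, of the exit of the peptide tunnel, had 0.0435 ± 0.00304 on its second probe (limma adjusted p = 1.23e-33) and 0.0434 on its first. Mrps21 had 0.0432 ± 0.00223 with the tightest relation of all members, a partial r of 0.748 (limma adjusted p = 7.93e-52). Mrpl40, specific to mitochondria, had 0.0331 ± 0.00269, a partial r of 0.582. Of those that fell, Mrpl37 had the steepest slope, -0.0173 ± 0.00275 (limma adjusted p = 5.02e-09), a 1.04-fold fall. The second Mrps33 probe fell by 0.0097, Mrpl32 by 0.00624 and Mrpl39 by 0.00585 (limma adjusted p = 0.0447). Of these, Mrpl37 and Mrpl32 also had an r below 0 with the family, while that of Mrpl39 was not clearly below 0.

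**Figure D3:**
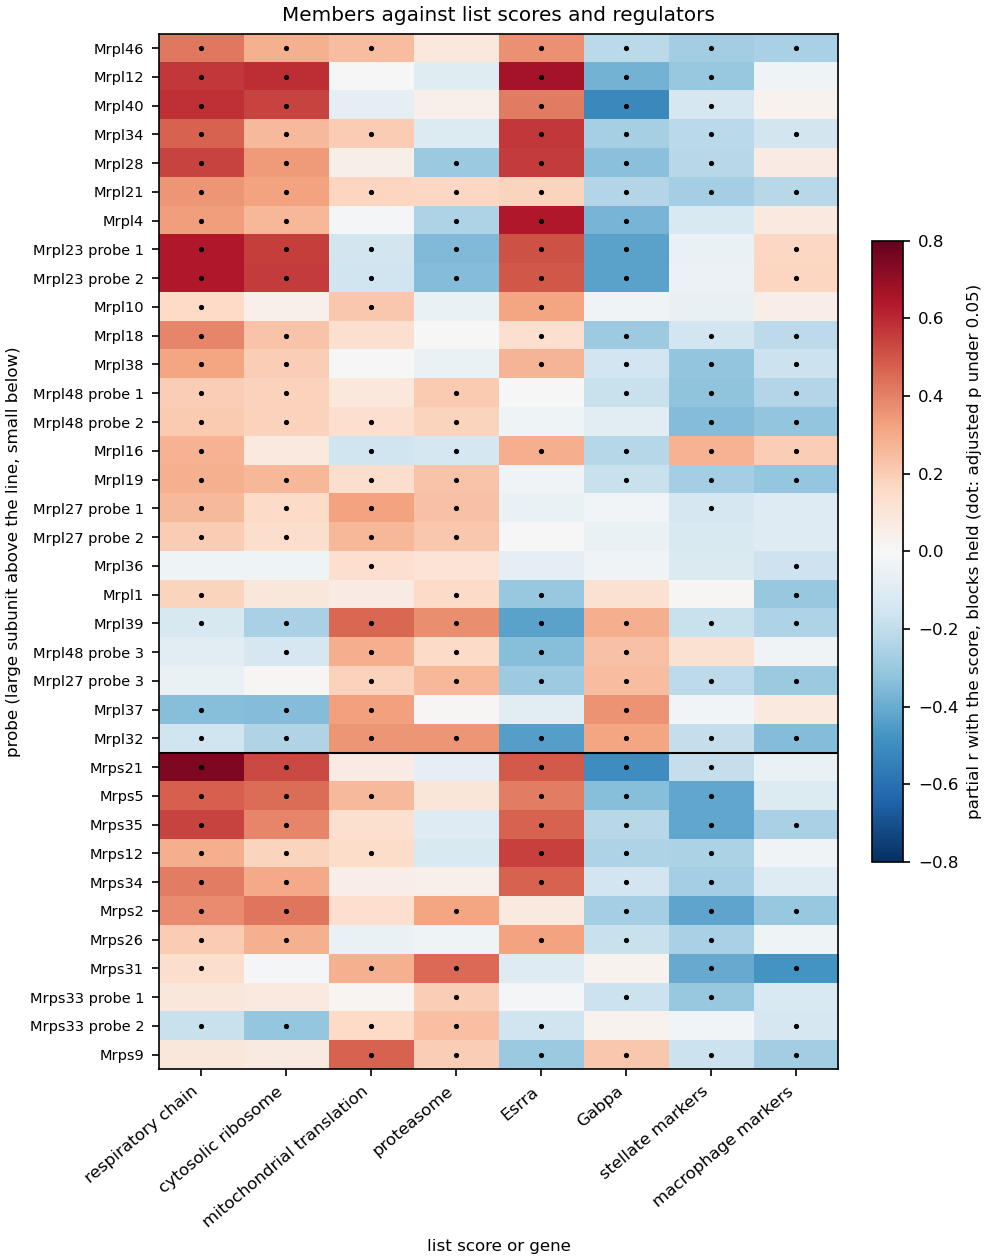
Partial r of each member probe with 6 scores or genes and 2 cell type lists after the blocks, with a dot where the limma adjusted p was under 0.05. The upper rows of each subunit are red for the respiratory chain, the cytosolic ribosome and Esrra, and Mrpl39, Mrpl37 and Mrpl32 are blue for these and red for mitochondrial translation.

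The cytosolic ribosome, which makes the proteins encoded in the nucleus, was followed by 23 of 36 members, against 34.9% of all probes, with 5 falling, against 25.5%. Its steepest slopes were those of Mrpl12 at 0.0468 ± 0.00368, Mrpl23 at 0.038 and Mrpl40 at 0.0309. The steepest falls were those of Mrpl37 at -0.0174, Mrps33 on its second probe at -0.0169 and Mrpl39 at -0.012. The score itself correlated at 0.671 with the respiratory chain score. Fitted together, a choice made after seeing the data, the respiratory chain had 24 members up, against 27.5% of all probes, all of them among the 27, and 1 down, against 19.4%. The slopes of Mrpl32, Mrpl39 and the second Mrps33 probe changed sign there. The cytosolic ribosome then had 7 up, against 19.5%, and 6 down, against 16.3%.

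The other genes of mitochondrial translation were followed by a smaller count of members, with other members among the steepest slopes. This list of 17 measured genes holds tRNA synthetases, translation and assembly factors and regulators of mitochondrial DNA such as Tfam. With it 19 of 36 members rose, against 28.3% of all probes, and 3 fell, against 14.2%. Mrpl27 was steepest, at 0.0246 ± 0.00523 on the second probe (limma adjusted p = 3.55e-05). Mrpl39 followed at 0.0211 ± 0.00239 (limma adjusted p = 2.64e-14) and then Mrps9 at 0.0203 ± 0.0022 (limma adjusted p = 2.68e-15). The r with the family was -0.101 ± 0.064 for Mrpl39 and -0.0279 ± 0.0671 for Mrps9, neither clearly below 0. The 2 Mrpl23 probes fell, by 0.011 and 0.0101, and Mrpl16 fell by 0.00635. This score had an r of 0.112 with the respiratory chain score. Within the later numbers alone 8 members rose, against 11.8% of all probes. Taken singly, Rbfa, which matures the small subunit RNA, had r = 0.666 with the members' mean. Lars2 had 0.474 and 0.389 on its 2 probes. Sars2 and Dap3, itself a small subunit protein, had 0.434 and 0.389, and Tfam had 0.002. Gtpbp10, an assembly factor of the large subunit, had -0.330, and Tfb2m had -0.337 and -0.0487 on its 2 probes. Guf1 had -0.288 and Mrrf -0.226.

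The proteasome, the cytosolic protease complex, was followed by 16 members, against 30.9% of all probes, and 5 fell, against 20.1%. Mrps31 was steepest at 0.0228 ± 0.0026, and the 2 Mrpl23 probes fell by 0.0238 and 0.0234. With the first principal component in the fit 8 rose, against 9.68% of all probes, and 1 fell, against 1891 of 23512 probes.

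**Figure D4:**
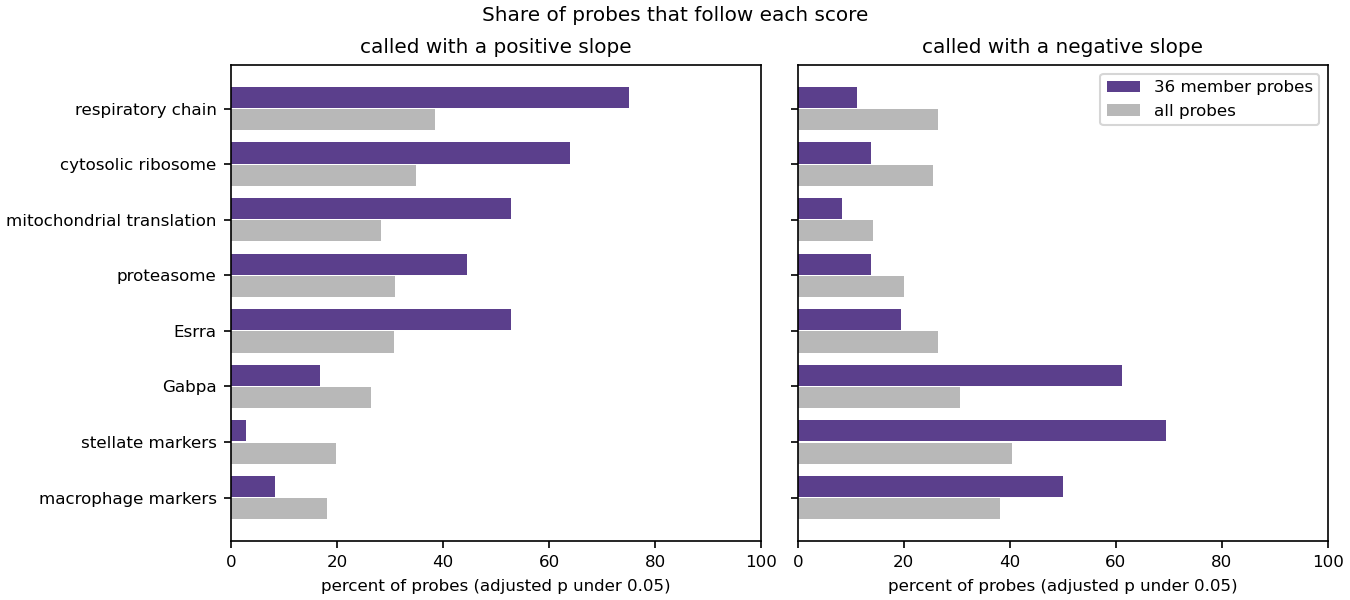
Share of the 36 member probes (purple) and of all 23512 probes (grey) with an adjusted p under 0.05 and a positive slope (left) or a negative slope (right) for 8 scores or genes. The respiratory chain has the highest member share on the left, 27 of 36 probes, and the stellate markers on the right, 25 of 36.

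Of 9 known regulators tested as single genes, Esrra and Gabpa had the most members. With Esrra, a nuclear receptor of energy metabolism, 19 members rose, against 30.7% of all probes, and 7 fell, against 26.5%. Mrpl12 had the steepest slope with it, 0.0528 ± 0.0034 (limma adjusted p = 2.52e-37), and Mrpl39 the steepest fall, -0.0198 ± 0.00243. Gabpa, the DNA-binding subunit of GABP, went the other way: 22 members fell, against 30.5% of all probes, and 6 rose, against 26.3%. Mrpl12 fell by 0.0301, and Mrpl37 rose at 0.0181. With the respiratory chain score added, 17 rose and 10 fell with Esrra, against 24.7% and 28.6% of all probes, and 12 fell and 7 rose with Gabpa, against 22.5% and 24.7%. The members' mean had r = 0.486 with Esrra and -0.370 with Gabpa, but -0.0247 with Nrf1, 0.0993 with Gabpb1, -0.161 with Ppargc1a, -0.0766 with Ppargc1b, -0.0222 with Pprc1, -0.0393 with Yy1 and -0.0871 with Myc. With Yy1, 1 member rose, Mrpl37, against 3.25% of all probes, and 1 fell, Mrpl19, against 4.12%. With Nrf1, 6 rose, against 13.1%, and 5 fell, against 9.39%. With the other subunit of GABP, Gabpb1, 8 rose, against 18.1%, and 4 fell, against 12.9%. With the coactivators, 3 rose and 8 fell with Ppargc1a, against 12.9% and 14%, 5 rose and 6 fell with Ppargc1b, against 9.84% and 10%, and 3 rose and 6 fell with Pprc1, against 10.6% and 12.5%. With Myc 4 rose, against 15.5%, and 9 fell, against 23.7%. These are RNA values, and the activity of a factor was not measured.

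Markers of stellate cells, the collagen-making cells of the liver, went with lower values of the family. Of 10 markers 8 were measured, and their score had 25 of 36 members falling, against 40.5% of all probes, and 1 rising, against 19.8%. All small subunit probes except Mrps33 on its second probe fell (10 of 11), and 15 of 25 large subunit probes. Mrpl38 had the steepest fall, -0.0264 ± 0.00464 (limma adjusted p = 1.43e-07), and Mrpl16 rose, at 0.011 ± 0.00223. Macrophage markers, 14 of 15 measured, had 18 falling, against 38.1%, and 3 rising, against 18.1%, led by Mrps31 at -0.024 ± 0.00257 (limma adjusted p = 6.38e-17). With the macrophage score added 22 fell with the stellate score, against 32.9% of all probes, of which 19 were among the 25. With the stellate score added 23 members rose with the respiratory chain, against 32.0%, all of them among the 27. In whole liver a smaller share of a cell type and less RNA per cell cannot be told apart. The stellate score had r = -0.564 with the first principal component. With that component in the fit 21 members fell, against 35.5% of all probes, of which 17 were among the 25, and 3 rose, against 21.5%.

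Except for endothelial markers, the other liver states and cell types had fewer members than the stellate or macrophage markers. With the stress genes of the amino acid response, 17 fell, against 28.0% of all probes, and 1 rose, against 17.4%, and Mrpl27 fell by 0.0277 on its second probe. With immediate early genes 14 fell, against 16.4%, and 0 rose, against 11.5%, and Mrpl36, a bacterial-type large subunit protein, fell most, by 0.0291 ± 0.00308. With fat storage genes 12 fell, against 33.3%, a share at the background, and 5 rose, against 20.1%. Mrpl36 fell by 0.0214 and Mrpl16 rose at 0.0187. With fatty acid oxidation genes 8 rose and 7 fell, against 16.5% and 15%, shares near the background. Acute phase genes had 2 up and 2 down, against 12.1% and 11.4%. Heat shock genes had 8 up, led by Mrps33 on its second probe, and 9 down, against 13.1% and 12.6%. Cell cycle genes had 3 up and 12 down, against 15.1% and 25.7%, a split in which both Mrpl23 probes rose and Mrpl38 fell most. Among the markers of other cells, endothelial cells had 14 up and 12 down, against 22.0% and 27.9%, with Mrpl23 steepest at 0.0245 ± 0.00365 and Mrpl19 lowest at -0.0187. The members' mean had r = 0.0802 with the endothelial score. Bile duct markers had 6 up and 9 down, against 16.2% and 25.3%, and lymphocyte markers 5 up and 7 down, against 14.2% and 21.8%. For both lists these shares were near the background. Neutrophil markers had 0 up and 4 down, against 5.18% and 5.13%. Red cell markers had 8 up and 4 down, against 12.5% and 13.2%. Pancreas markers had 3 up and 1 down, against 8.2% and 4.73%, also near the background. Over 28 lists and single genes, the slopes share the same livers and are not independent of each other.

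Among other named genes, those most like the members' mean over 302 livers were Lamtor4, of the lysosomal signalling platform, at r = 0.754 (rho = 0.719), and Mcat, of mitochondrial fatty acid synthesis, at 0.737. Timm13, which guides proteins into the inner membrane, followed at 0.724, then Scrn2 at 0.720 and Mtx1, of the outer membrane import machinery, at 0.720. Fam174c at 0.714, Ecsit, an assembly factor of respiratory complex I, at 0.710, Elof1 at 0.709, Rwdd2b at 0.707 and Npff at 0.706 completed the first 10. The most opposite were Sdcbp at -0.752, Asah1 at -0.734 and Rhoq at -0.712. Among genes next to a member in gene order, r was highest for Fbf1 with Mrpl38, at 0.640, and Abhd8 with Mrpl34, at 0.479. The other neighbours ran through values near 0, such as Cpt1a with Mrpl21 at 0.00579. The lowest was -0.372, for a Rab6a probe with the third Mrpl48 probe. That Rab6a probe had 0.417 and 0.430 with the first and second Mrpl48 probes.

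The later and the earlier mouse numbers differed for many members, as for many probes of the whole array. Mice above 212 (n = 143) were compared with mice up to 212 (n = 159) by limma with the marker block as a covariate; the ranges come from the titles and may mark separate processing. In the later numbers 16 members were lower, against 30.6% of all probes, and 7 higher, against 33.9%. Mrpl12 ran from -0.273 through a median of -0.0984 to 0.152 in the later and from -0.184 through -0.0120 to 0.244 in the earlier numbers. Its means were -0.0922 ± 0.0764 and 0.0011 ± 0.0835 (SD), a difference of -0.0925 ± 0.00911 (limma adjusted p = 2.32e-19). The ranges overlap widely, though most of the later mice lie below the median of the earlier ones. Mrpl34, at -0.0739 ± 0.00805, and Mrps12, at -0.0694 ± 0.00599, followed. Mrps12 ran from -0.204 through -0.0596 to 0.0351 in the later and from -0.178 through -0.0045 to 0.201 in the earlier numbers. Higher in the later numbers were Mrpl1 by 0.0519 ± 0.00678, Mrpl39 by 0.028 ± 0.00536 and Mrpl32 by 0.028 ± 0.00453. With the first principal component in the fit, 0 were higher, against 9.21% of all probes, and 11 lower, against 11.6%, and Mrpl32 and Mrpl39 turned to -0.0137 and -0.0101.

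**Figure D5:**
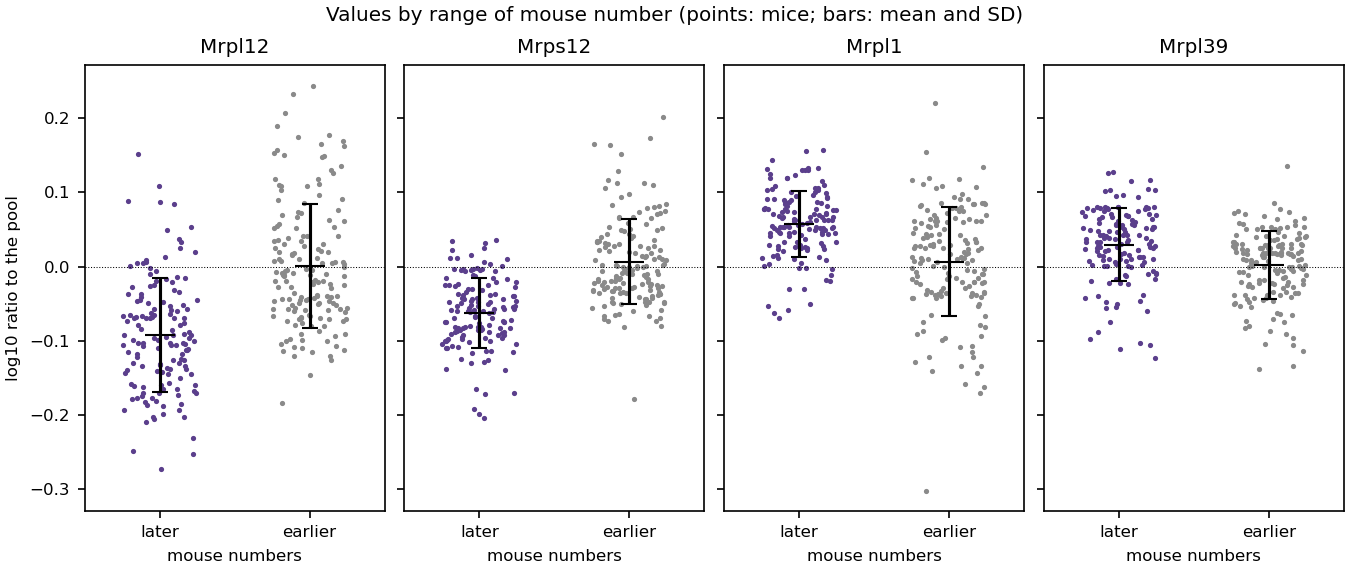
Log10 ratio to the pool of 4 members in later and earlier mouse numbers, 1 point per mouse, with mean and SD. Mrpl12 and Mrps12 are lower and Mrpl1 and Mrpl39 higher in the later numbers, with wide overlap.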

How the data were processed

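The submitters hybridised liver RNA of 302 mice, 1 array each, with a common pool in the other dye, per the labels. The authors deposited 1 table of log ratios, read here as log10 of mouse over pool. How the scans were corrected and normalized is not given in the sources used here, and the array number limits the precision. Names came from the array's annotation table, updated through gene identifiers to a RefSeq table (GRCm38.p6). The 30 member genes were matched by symbol, and all gene lists and members were chosen with earlier results of these data known. Probes with values in at least 90% of mice were used (23512 of 23562). Blocks were the Eif2s3y value (below or above -0.8, used only as a block) by mouse number up to 212 or above. A list score was the mean of its genes' block-centred, standardized values, without members, scaled to an SD of 1. Each of 29 comparisons was fitted across all probes (two-sided) with limma 3.58.1 under R 4.3.3, and p was adjusted over all probes by Benjamini-Hochberg and called at 0.05, and the mice are the replicates. Slopes are log10 units per SD of the score, and SEs of correlations and SDs come from a jackknife over mice. Members were named by a rule: extremes of spread, of agreement with the family, and of slope in each comparison. The fit was tested on simulated data. Added after seeing the data were the fits with 2 scores together and the correlations of single members without the first principal component. Probes with several symbols and 9859 probes not in the annotation table were not named. The labels give no donor or batch beyond the mouse number.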

Additional observations from a re-analysis of the deposited data

How the results depend on the processing

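The 4 lists, the mouse number, the pair correlations, the spread and the clusters were recomputed under other settings, and 111 of 149 values stayed within 1.5 times (counts) or 1 SE (others). For the respiratory chain, 2 members fell after dividing arrays by their SD, within either number range and with Esrra added. Of all 23512 probes, 6114 fell after that division, 5158 in the earlier and 4848 in the later numbers, and 6127 with Esrra added. When the cytosolic ribosome was added 1 member fell, against 19.4% of all probes. When the respiratory chain was added 7 rose with the cytosolic ribosome, against 19.5%. For mitochondrial translation 8 rose in the later numbers, against 2766 of 23512 probes. At a limma adjusted p under 0.01, where 3 fell at 0.05, and with the first principal component 0 fell, against 2443 and 2954 probes. Under array scaling, with no blocks and in the earlier numbers 1 fell, against 3237, 3028 and 2888 probes. For the proteasome 8 rose and 1 fell with the first principal component, against 2276 and 1891 of 23512 probes. In the later numbers 9 rose, against 4808 probes. Fits with the marker block only or no blocks had 10 falling, against 5176 and 5089 probes. For the mouse number 0 were higher with the first principal component, against 2165 of 23512 probes. The mean r within the large subunit was 0.0875 with the first principal component, 0.0825 with array scaling and 0.0906 over gene means. Within the small subunit it was 0.111 in the later and 0.164 in the earlier numbers and 0.166 over gene means, and between subunits 0.106, 0.132 and 0.144. Over all members it was 0.110 with the first principal component, 0.109 in the earlier numbers and 0.123 over gene means. The median SD of the large subunit was 0.0550 by the median absolute deviation and 0.0624 with no blocks. That of the small subunit was 0.0444, 0.0472 with array scaling and 0.0539 with no blocks, and that of all members 0.0502, 0.0530 and 0.0603. The count of members with separate clusters was also 0 with no blocks, and it has no p. A gap of 4 SDs, leaving out values at the limits and keeping only probes with values in all mice could not have raised it. These settings are counted among the 111. Of 1279 values of single called members, 147 lost the call and 29 changed sign.
Sign changes with the first principal component were those of the mouse number for Mrpl23 (0.00383 and 0.0044), Mrpl4 (0.0033), Mrpl10 (0.00845), Mrpl32 (-0.0137), Mrpl39 (-0.0101), Mrpl27 (-0.000201) and Mrpl40 (0.0067). The same setting turned mitochondrial translation for Mrpl23 (0.000142 and 0.00107) and Mrpl16 (0.000546), and the proteasome for Mrps9 (-0.00161), Mrpl48 (-0.00092), Mrpl1 (-0.0047) and Mrpl16 (0.00749). In the later numbers Mrps31 turned for the respiratory chain (-3.16e-06) and Mrpl34 for mitochondrial translation (-3.2e-05). With the cytosolic ribosome added Mrpl32 (3.57e-05), Mrpl39 (0.00399) and Mrps33 (0.00294) turned for the respiratory chain, with Esrra added Mrpl32 (0.000572) and Mrpl39 (0.00227), and with stellate markers Mrps31 (-0.000159). With the respiratory chain added Mrpl34 (-0.0071), Mrpl38 (-0.00173), Mrpl27 (-0.0026), Mrpl18 (-0.00423), Mrps12 (-0.00181) and Mrpl28 (-0.00193) turned for the cytosolic ribosome. The causes were not tested. Of 488 counts for the other lists and genes, 343 stayed within 1.5 times. Mrps18a was not measured and no member was a pseudogene, so neither variation could be run. No paired analysis was possible because the labels give 1 group. Every result rests on ratios to 1 pool, and signal over background was not analysed here.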
